A study of Homo sapiens with 31 samples.

Results

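CTBP2 ChIP-seq peaks of the leukemia line MUTZ3 were sorted by whether a second EVI1-expressing line, MOLM1, had a CTBP2 peak at the same place. The members described here were chosen on the peak lists themselves, as peaks of the unmodified MUTZ3 CTBP2 list that overlapped, by at least 1 bp, a peak of both untreated inducible CTBP2 lists and of 4xPLASS replicate 2, and that overlapped no peak of the MOLM1 CTBP2 list. Of 16836 unmodified MUTZ3 peaks, 13293 also had a peak in untreated replicate 1, 12820 of these in untreated replicate 2, and 10981 of these in 4xPLASS replicate 2. Among these 10981 reproducible sites, 8777 overlapped a MOLM1 peak and are called MOLM1-shared sites, and 2204 did not and are the members, which is 20.1% of the reproducible sites. Another 2820 unmodified MUTZ3 peaks had no MOLM1 overlap but were missing from at least 1 of the other lists and were left out. Unmodified peaks without a MOLM1 peak were reproducible in 43.9% of cases (2204 of 5024), against 74.3% of those with one (8777 of 11812), which is a property of the rule and was not tested.

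MUTZ3 is a human acute myelomonocytic leukemia line, and MOLM1 is a human line from a chronic myeloid leukemia in blast crisis. The study asked where EVI1 brings CTBP2 to chromatin and what happens when their contact is blocked, and 13 of its 31 samples had peak lists that were used here. The groups were unmodified MUTZ3 (genotype WT; 1 CTBP2 and 1 EVI1 library); MUTZ3 carrying the retroviral p50MX-3xFLAG-3xNLS-4xPLASS-Zeo construct (2 CTBP2 libraries), which encodes the mutated control peptide; MUTZ3 carrying lentiviral pCW-4xPLDLS, either untreated or with doxycycline (dox), collected at 72 h (2 CTBP2 and 2 EVI1 libraries each); and untreated MOLM1 cells, a clone with a dox-inducible pLKO tetOn shRNA against EVI1 (1 CTBP2 library). The inducible MUTZ3 cells were a bulk population, and dox switched on the competitor peptide. The unmodified CTBP2 library carried the label of a single crosslink and the other libraries that of a double crosslink with DSG, although the study's sample list gives a single crosslink for MOLM1 and 4xPLASS, so cell line, crosslink, library and, for MOLM1, the clone cannot be told apart in what follows. Nothing in the labels said that the replicates came from separate cultures, so their spread may be technical.

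CTBP2 is a corepressor without DNA binding of its own. It is brought to chromatin by transcription factors that carry a PLDLS-type motif, among them EVI1, a zinc-finger protein encoded in the MECOM locus and expressed at high levels in leukemias with 3q26 rearrangements. A peptide with copies of PLDLS competes for the same pocket of CTBP2, whereas the PLASS version has lost that contact.

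The list sizes bear on every share given below, since a longer list meets more sites. The unmodified lists held 16836 CTBP2 and 21505 EVI1 peaks, the 4xPLASS lists 6688 and 31310, the untreated inducible CTBP2 lists 62232 and 56526, the dox CTBP2 lists 24588 and 23878, and the MOLM1 list 64569. The untreated inducible EVI1 lists held 51389 and 72214 peaks and the dox EVI1 lists 53806 and 47599. The lists give no read counts, so sequencing depth is unknown, and intervals on shares of sites (95%, Wilson for a share and Newcombe for a difference) cover counting error over sites only. Neighbouring sites are not independent, which these intervals do not cover.

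Windows of the strongest members are shown first; they are examples of the top of the list, and most members did not have repeated windows of this kind. The 101 bases centred on the summit in the unmodified CTBP2 list are given below on the plus strand of GRCh37 (hg19), 5′ to 3′, with capitals marking each GGAA or its complement TTCC, the core letters recognised by ETS factors. The windows lay upstream of MRGBP (chr20:61408490-61408590), upstream of PRR29 (chr17:62070287-62070387), upstream of DAP (chr5:10787092-10787192) and in an intron of FABP6 (chr5:159624871-159624971).
MRGBP: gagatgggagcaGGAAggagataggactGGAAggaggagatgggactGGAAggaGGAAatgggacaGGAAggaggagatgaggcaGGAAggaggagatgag
PRR29: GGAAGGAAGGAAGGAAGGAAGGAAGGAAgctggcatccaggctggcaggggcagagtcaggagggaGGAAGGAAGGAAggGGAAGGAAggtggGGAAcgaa
DAP: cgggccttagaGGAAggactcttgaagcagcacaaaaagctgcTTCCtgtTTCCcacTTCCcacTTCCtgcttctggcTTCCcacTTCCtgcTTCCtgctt
FABP6: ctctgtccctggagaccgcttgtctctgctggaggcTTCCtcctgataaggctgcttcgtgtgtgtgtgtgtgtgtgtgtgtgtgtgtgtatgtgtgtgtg
The MRGBP window repeated short units with GGAA on 1 strand, the PRR29 window had such units at both ends of a stretch without them, the DAP window carried 7 copies of TTCC and 1 of GGAA, and the FABP6 window ran into a stretch of alternating T and G on its 3′ side. In the wider 201 bases around the summit, the PRR29 site had 22 copies of the core on 1 strand, the MRGBP site 15 and the DAP site 9.

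The strongest member was an intronic site of FABP6 (ENSG00000170231), which encodes an ileal bile acid-binding protein, at chr5:159624462-159625336. Its fold enrichment over local background was 60.8 in the unmodified CTBP2 list, 64.4 and 61.2 in the untreated inducible lists, 11.4 and 45.7 in the 4xPLASS lists, and 23.3 and 24.3 in the dox lists. The nearest MOLM1 peak was 8820 bp away. Its EVI1 fold enrichment was 29.3 in unmodified cells, 85.3 and 122.7 in untreated inducible cells, and 61.4 and 55.1 with dox. The dox values lay below both untreated values for CTBP2 and for EVI1 at this site.

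The other strongest members lay near GPR37, an orphan G protein-coupled receptor, MRGBP, a subunit of the TIP60 histone acetyltransferase complex, DAP, death-associated protein, FAM171A1, KRT9, a keratin of palm and sole skin, ZBTB43, a BTB zinc-finger protein, SERPINB8, a serine protease inhibitor, AMN1 and PRR29. Their fold enrichment in the unmodified list ran from 20.3 to 35.3, and all 10 of the strongest had a CTBP2 peak in both dox libraries. All but the AMN1 site had a peak in all 5 EVI1 lists; the AMN1 site had one in 3, with none in either dox EVI1 library. None of the 10 was within 1 kb of a protein-coding transcription start site (TSS). The nearest TSS was closest at AMN1 (−2949 bp, where negative is upstream) and farthest at SERPINB8 (306857 bp). The order was not fixed across libraries: the FAM171A1 site ranked 62 in the unmodified list, 13932 in untreated replicate 1 and 77 in untreated replicate 2. The ZBTB43 site ranked 103, 39236 and 5466 in the same lists. Gaps to the nearest MOLM1 peak among these 10 ran from 263 bp at GPR37 to 306443 bp at SERPINB8.

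As a group the members were somewhat weaker than MOLM1-shared sites in the lists that chose them, which is given as a description. Median fold enrichment in the unmodified list was 5.16 at members and 5.68 at MOLM1-shared sites, 11.1 and 13.0 in untreated replicate 1, 8.49 and 10.7 in untreated replicate 2, and 5.81 and 7.29 in 4xPLASS replicate 2. Members with a fold of at least 20 in the unmodified list numbered 11, against 111 MOLM1-shared sites, and those with at least 10 numbered 156 against 1073. In 4xPLASS replicate 1, which the rule did not use, 640 members had a peak (29.0%, 27.2 to 31.0), against 42.2% of MOLM1-shared sites and a background of 39.6% of all reproducible sites, a difference of −13.2 percentage points (−15.3 to −11.0).

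Absence from the MOLM1 list had a sliding meaning. The median distance from a member to the nearest MOLM1 peak was 4341 bp, with quartiles at 501 and 18715 bp. In all, 551 members (25%) had a MOLM1 peak within 500 bp, 715 (32.4%) within 1000 bp, 791 (35.9%) had none within 10 kb, and 116 (5.26%) had none within 100 kb. At the edge of the rule, 3 members touched a MOLM1 peak without sharing a base, at JAG1, a Notch ligand, at ABCG1, a cholesterol transporter, and at AP1M1, an adaptor of clathrin-coated vesicles. On the other side of the edge, sites at NETO2, SAMHD1 and SMTN counted as shared through a single overlapping base, with MOLM1 fold enrichments of 5.53, 7.15 and 3.71. The inducible lists held wider peaks (median 860 bp for those at members in untreated replicate 1, against 235 bp for the members themselves), and in 624 members (28.3%) the peak of untreated replicate 1 did overlap a MOLM1 peak. Across the untreated and 4xPLASS replicate 2 lists together, 643 members (29.2%) had such a peak and 1561 (70.8%) did not.

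The dox libraries addressed which CTBP2 sites still gave a peak when the competitor was expressed. In dox replicate 1, 1475 members had a CTBP2 peak (66.9%, 64.9 to 68.9), against 85.4% of MOLM1-shared sites and 81.7% of all reproducible sites. In dox replicate 2, 1399 members had one (63.5%, 61.4 to 65.5), against 84.9% of MOLM1-shared sites and 80.6% of all. Fewer members than MOLM1-shared sites kept a peak in both libraries, by 18.5 points (interval of the difference −20.6 to −16.4) and by 21.4 points (−23.6 to −19.3). Over the 2 libraries the kept share was 65.2% ± 2.44 (SD, n = 2) at members and 85.1% ± 0.363 at MOLM1-shared sites, a mean difference of −19.9 points ± 2.08, with an exact two-sided sign permutation p of 0.5, the smallest that 2 libraries can give. In all, 1167 members (52.9%) kept a peak in both dox libraries, 540 (24.5%) in 1 and 497 (22.5%) in neither, whereas 78.5%, 13.3% and 8.23% of MOLM1-shared sites did so.

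The difference had the same direction at weak and strong sites. All reproducible sites were cut into 5 equal groups by fold enrichment in the unmodified list. In the strongest group (fold of at least 8.01) 83.8% and 84.4% of its 315 members had a peak in the 2 dox libraries, against 95.7% and 96.9% of its MOLM1-shared sites. In the weakest group (fold of at most 4.31) the shares were 58.1% and 52.0% of 504 members, against 78.3% and 75.8%. Averaged over the members' distribution across the 5 groups the difference was −18.3 points, and −17.6 points with groups made on untreated replicate 1. Members farther than 10 kb from a MOLM1 peak kept a CTBP2 peak in 71.4% and 70.3% of cases, and those with a gap of at most 1 kb in 64.6% and 54.1%.

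**Figure D1:**
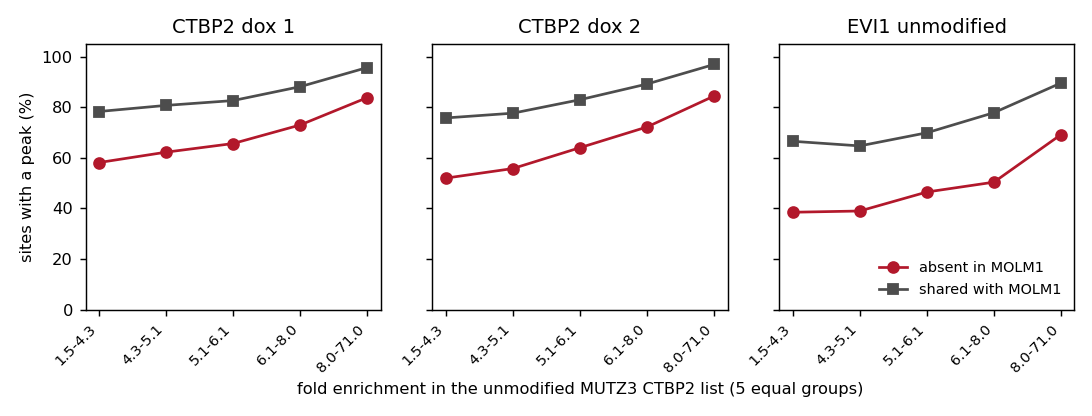
Share of sites with a peak (y axis, percent) in dox CTBP2 replicates 1 and 2 and in the unmodified EVI1 list, for members (red circles) and MOLM1-shared sites (gray squares), in 5 equal groups of all reproducible sites by fold enrichment in the unmodified CTBP2 list (x axis). The members lie below the MOLM1-shared sites in all 5 groups of all 3 panels.

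Among MOLM1-shared sites, the share kept with dox also followed the fold enrichment of the MOLM1 peak, given as a description because the MOLM1 list defined the groups. In the weakest of 5 equal groups of shared sites by MOLM1 fold (2.23 to 6.52), 76.8% and 72.2% had a dox peak and 54.0% an unmodified EVI1 peak. In the strongest of these groups (from 19.2), the shares were 94.5%, 96.0% and 92.1%. The members, with no MOLM1 peak called, stood below the weakest group on all 3 measures.

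Where a member had a CTBP2 peak in both untreated and both dox lists, its fold enrichment was lower with dox. Over the 1167 such members the median fold was 12.9 and 10.7 untreated and 5.70 and 6.26 with dox, so the libraries did not overlap, and the mean log2 ratio of dox to untreated medians was −0.98 (exact two-sided permutation p = 0.33, the smallest that 2 against 2 libraries can give). The same ratio at 6888 MOLM1-shared sites was −0.98. The untreated lists took part in choosing the sites, and fold enrichment also moves with library depth, so this ratio is a description of the lists.

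Some members lost their CTBP2 peak in both dox libraries. The strongest of them in the unmodified list had as nearest gene CNR1, a cannabinoid receptor (fold 15.9), and KLF6, a Krüppel-like transcription factor (15.1). Next were RHOU, a small GTPase (12.01), CABP7, a calcium-binding protein (11.8), and PALD1 (10.9). These sites lay −382946, −274672, 255921, 22614 and 56598 bp from the TSS, in that order, where negative is upstream. In the untreated inducible libraries their folds were 8.94 and 5.42 at CNR1, 7.38 and 5.42 at KLF6, 19.5 and 15.9 at RHOU, 11.8 and 8.81 at CABP7, and 6.21 and 4.84 at PALD1. The RHOU site was the strongest of the 5 in both untreated libraries, and a MOLM1 peak stood 87 bp away. EVI1 was still called at the KLF6, RHOU and CABP7 sites in all 5 EVI1 lists. At the KLF6 site the EVI1 fold was 13.8 and 13.7 untreated and 20.1 and 21.4 with dox, while at CNR1 and PALD1 no EVI1 peak was called with dox.

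The windows of 3 of these sites are given below. Capitals here mark the GATA letters AGATAA, the ETS letters AGGAAGT and the RUNX letters TGTGGT on either strand, and not GGAA and TTCC as above. The CNR1 and PALD1 windows, not printed, held purine-only or pyrimidine-only runs of 41 and 49 bases in the 201 bases around the summit. The longest such runs at KLF6, RHOU and CABP7 were 10, 14 and 11 bases, so the printed windows do not stand for all lost sites. They lay at chr10:4102095-4102195 (KLF6), chr1:229127097-229127197 (RHOU) and chr22:30138556-30138656 (CABP7, in an intron of ZMAT5), on the plus strand of GRCh37.
KLF6: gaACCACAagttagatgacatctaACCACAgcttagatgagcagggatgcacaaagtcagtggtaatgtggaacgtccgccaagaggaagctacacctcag
RHOU: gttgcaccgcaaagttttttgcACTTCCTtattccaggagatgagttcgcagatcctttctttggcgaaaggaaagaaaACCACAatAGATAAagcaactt
CABP7: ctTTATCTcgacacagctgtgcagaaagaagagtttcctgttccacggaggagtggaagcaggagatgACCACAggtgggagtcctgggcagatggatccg
The KLF6 window held the RUNX letters in 2 copies, the RHOU window held 1 match of each of the 3 motifs, and the CABP7 window held 1 GATA and 1 RUNX match. These matches are letters in a window and not evidence of binding.

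EVI1 was present at most members, but less often in the unmodified list than at MOLM1-shared sites. In that list 1028 members had an EVI1 peak (46.6%, 44.6 to 48.7), against 74.2% of MOLM1-shared sites and 68.6% of all reproducible sites, a difference of −27.5 points (−29.8 to −25.2). The longer inducible lists called EVI1 at 95.3% and 94.3% of members in untreated replicates 1 and 2, against 98.5% and 95.9% of MOLM1-shared sites, with backgrounds of 97.8% and 95.6%. The differences there were −3.20 points (−4.20 to −2.35) and −1.59 points (−2.71 to −0.602). In all, 990 members (44.9%) had an EVI1 peak in all 5 lists, 887 (40.2%) in 4 and 29 (1.32%) in none, against 71.9%, 22.8% and 0.376% of MOLM1-shared sites. Where the unmodified list called EVI1, the EVI1 summit lay a median of 46 bp from the CTBP2 summit at members and 40 bp at MOLM1-shared sites. In the inducible EVI1 lists these medians were 85 and 58 bp, 101 and 70 bp in the untreated replicates and 87.5 and 62 bp, 80 and 57 bp with dox.

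With dox, EVI1 peaks were called at 91.5% and 89.2% of members in replicates 1 and 2, with backgrounds of 96% and 95.4% over all reproducible sites. Both dox values lay below both untreated values, with means of 90.3% ± 1.60 with dox and 94.8% ± 0.674 untreated (SD, n = 2 each), a difference of −4.47 points with an exact two-sided permutation p of 0.33, the smallest this design allows. At MOLM1-shared sites the dox values, 97.1% and 97.0%, lay between the untreated values of 98.5% and 95.9%, and the difference was −0.16 points (exact permutation p = 1). The difference between these 2 changes was −4.31 points, with an exact permutation p of 0.33, again the smallest possible.

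Members with and without EVI1 in the unmodified list differed in their fate. With EVI1, 80.0% and 76.7% of 1028 members kept a CTBP2 peak in the 2 dox libraries, and without it 55.5% and 52.0% of 1176 members did. MOLM1-shared sites with the same EVI1 status kept more, with 90.9% and 90.5% where EVI1 was called and 69.4% and 68.8% where it was not. Of the members kept in both dox libraries, 60.8% had an unmodified EVI1 peak, against 25.6% of those kept in neither. These groups also differed in enrichment: the median fold in untreated replicate 1 was 12.9 for members kept in both and 8.82 for those kept in neither.

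The 29 members without EVI1 in any of the 5 lists were led by sites near PCMTD2 (fold 14.1), WSB1, a substrate adaptor of a ubiquitin ligase (9.46), C3orf33 (9.18), KNDC1 (8.93) and GABRR1, a GABA receptor subunit (8.78). The GABRR1 site kept CTBP2 in both dox libraries (fold 4.46 and 11.8), the PCMTD2 site in 1 (3.50), and the other 3 in neither. Windows of 4 of these sites are given because their sequence is so uniform, again with GGAA and TTCC in capitals, at chr17:25682514-25682614 (WSB1), chr6:89952305-89952405 (GABRR1), chr3:155503869-155503969 (C3orf33, intronic) and chr20:62918248-62918348 (PCMTD2, intronic), plus strand of GRCh37.
WSB1: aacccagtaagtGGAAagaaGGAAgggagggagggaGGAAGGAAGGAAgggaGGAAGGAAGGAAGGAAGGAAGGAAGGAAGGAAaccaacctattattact
GABRR1: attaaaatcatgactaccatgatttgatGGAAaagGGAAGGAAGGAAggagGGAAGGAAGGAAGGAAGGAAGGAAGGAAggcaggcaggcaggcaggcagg
C3orf33: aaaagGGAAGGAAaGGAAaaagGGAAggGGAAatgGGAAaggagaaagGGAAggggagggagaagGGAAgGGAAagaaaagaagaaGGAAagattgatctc
PCMTD2: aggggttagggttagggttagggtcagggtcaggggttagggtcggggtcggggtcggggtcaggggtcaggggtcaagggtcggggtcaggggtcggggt
The first 3 held purine-only or pyrimidine-only runs of 73, 53 and 83 bases, in that order, in the 201 bases around the summit. The PCMTD2 window repeated short units rich in G, with T, A and C, and had no copy of the core.

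Such windows were then counted over all sites, with measures chosen after the printed sequences had been seen. In the 201 bases around the summit, a purine-only or pyrimidine-only run of at least 25 bases was present in 234 members (10.7%, 9.44 to 12.02) and in 3.95% of MOLM1-shared sites, a difference of 6.71 points (5.42 to 8.13). At most 150 distinct 6-base words, of 196 possible positions, were found in 10.8% of members and 4.12% of MOLM1-shared sites (difference 6.73 points, 5.42 to 8.15). At least 5 copies of GGAA on 1 strand were found in 21.4% and 12.3% (difference 9.12 points, 7.31 to 11). The difference was widest in the strongest of the 5 groups by unmodified fold, where 42.5% of members and 18.7% of MOLM1-shared sites had at least 5 copies of GGAA, and narrowest in the weakest, with 13.7% and 9.16%. It was not seen near promoters, where 5.66% of members and 4.32% of MOLM1-shared sites had a long run (difference 1.33 points, −0.562 to 3.73).

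A long run or few distinct words were found in 344 members (15.7%) and in 7.07% of MOLM1-shared sites. Of the 10 strongest members 5 had such a window, against 7 of the 10 strongest MOLM1-shared sites, and of the 100 strongest 37 and 27 did. Repeated sequence also moved with EVI1 status. Of the 29 members without any EVI1 peak, 14 had a long run or few distinct words, against 110 of 987 (11.1%) of those with EVI1 in all 5 lists that were placed on chromosomes 1 to 22 and X. Of members kept in 0, 1 and 2 dox libraries, 15.3%, 16.3% and 15.5% had such a window, while at least 5 copies of GGAA were found in 17.3%, 20.9% and 23.4%. Without these windows 1851 members on those chromosomes remained, of which 67.6% and 63.0% kept a dox peak (MOLM1-shared 85.5% and 84.9%) and 49.1% had an unmodified EVI1 peak (74.8%). Reads of repeated sequence are hard to place, and the part of mapping in the calls at these sites was not tested.

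Motifs were searched on both strands of the same 201-base windows on chromosomes 1 to 22 and X (2195 members and 8767 MOLM1-shared sites), and 6 of 11 were rarer at members over all windows. The RUNX letters TGTGGT were in 16.9% of members and 24.6% of MOLM1-shared sites (23.1% of all), a difference of −7.77 points (−9.53 to −5.92). The ETS letters AGGAAGT were in 17.0% and 22.2% (21.2% of all; −5.19 points, −6.95 to −3.35), the AP-1 letters TGANTCA in 3.87% and 7.95% (7.13% of all; −4.08, −5.01 to −3.03), the C/EBP letters TTGCNNAA in 5.33% and 7.96% (7.43% of all; −2.63, −3.68 to −1.47), and the E-box CAGNTG in 43.1% and 48.5% (47.4% of all; −5.41, −7.72 to −3.08). The promoter ETS letters CCGGAAG were in 5.38% and 7.57% (7.13% of all; −2.20, −3.24 to −1.04). At promoters alone the intervals for RUNX, ETS, C/EBP, AP-1 and E-box letters all held 0, and AP-1 (3.10% and 2.79%) and E-box letters (41.6% and 38.5%) were in more members than MOLM1-shared sites. In the strongest of the 5 groups by unmodified fold RUNX letters were in 19.7% and 32.3% (−12.6, −17.1 to −7.39), whereas ETS letters were in 26.0% and 27.2% (−1.12, −6.10 to 4.36), and the intervals for C/EBP and AP-1 letters also held 0.

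For the other 5 motifs the interval of the difference held 0 over all windows. The GATA letters AGATAA were in 10.3% of members and 11.3% of MOLM1-shared sites (11.1% of all), with a difference of −1.03 points (−2.41 to 0.456). ACAAGATA, a core of the site bound by the first zinc-finger domain of EVI1, was in 0.683% and 0.741% (0.730% of all), the MYB letters TAACNG in 13.0% and 14.3% (14.0% of all), the GC box GGGCGG in 23.4% of both (23.4% of all), and CAGGTG, the E-box of ZEB factors and a case of CAGNTG, in 18.2% and 18.3% (18.3% of all). At promoters alone CAGGTG was in 23.2% of members and 17.7% of MOLM1-shared sites (18.8% of all), a difference of 5.46 points (1.73 to 9.49). Away from promoters it was in 16.5% and 18.5% (−2.03, −3.99 to 0.0529). In the strongest of the 5 groups by unmodified fold it was in 13.3% and 16.8% (−3.46, −7.21 to 1.04). The intervals were not corrected for reading 11 motifs in several classes. GC content of the windows was close, with a median of 56.2% at members and 55.7% at MOLM1-shared sites. Within the members, AGATAA was in 13.9% (11.9 to 16.1) of those with an unmodified EVI1 peak and in 7.09% (5.76 to 8.71) of those without, and RUNX letters in 20.0% (17.7 to 22.6) and 14.1% (12.2 to 16.2).

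Position relative to genes differed by at most about 2 points in any class of TSS distance. The nearest protein-coding TSS lay within 1 kb of the summit in 548 of 2196 members with a gene on their sequence (24.95%, 23.2 to 26.8) and in 24.5% of MOLM1-shared sites, a difference of 0.419 points (−1.57 to 2.47) whose sign was not stable under other definitions of the members. A further 17.7% of members lay 1 to 10 kb, 40.9% lay 10 to 100 kb and 16.5% over 100 kb from a TSS. The last class was larger than at MOLM1-shared sites (14.4%), by 2.04 points (0.373 to 3.81), and for 1 to 10 kb and 10 to 100 kb the intervals of the difference held 0. Of the members, 42.1% were intronic, 16.7% exonic and 41.3% intergenic. The promoter share depended on the distance to MOLM1 peaks: it was 43.8% among the 715 members with a gap of at most 1 kb, 13.6% at 1 to 10 kb and 17.7% beyond 10 kb. Requiring no MOLM1 peak within 1 kb gave −10.1 points. That difference was taken from all other reproducible sites, which then held the nearer members as well as MOLM1-shared sites. At promoters the letters CCGGAAG, a common ETS site of promoters, were in 6.57% of members and 15.4% of MOLM1-shared sites (13.6% of all), a difference of −8.82 points (−11.2 to −6.02), whereas away from promoters they were in 4.98% and 5.03%.

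The strongest promoter members lay at LMX1B, a LIM homeobox transcription factor (chr9:129376011-129376261, −69 bp from the TSS), ABCB9, a lysosomal peptide transporter (−73 bp), SLC27A6, a fatty acid transport protein (456 bp), ZNF366, a zinc-finger protein of dendritic cells (−80 bp), and VPS4B, an ATPase of membrane scission (301 bp, where negative distances are upstream). The LMX1B promoter had a CTBP2 fold of 14.9 in the unmodified list, 24.3 and 12.8 in untreated replicates, 7.43 in dox replicate 1 and no peak in dox replicate 2, with the nearest MOLM1 peak 92607 bp away. The SLC27A6 promoter had folds of 12.01 unmodified, 45.03 and 37.1 untreated and 8.24 and 8.66 with dox, with the nearest MOLM1 peak 336716 bp away, and EVI1 in all 5 lists. The SLC27A6 summit also lay within FBN2, and the ABCB9 summit lay in an exon of ARL6IP4. At VPS4B a MOLM1 peak stood 27 bp from the member, so that site was separate by a narrow margin.
The window at LMX1B (chr9:129376088-129376188, plus strand, GRCh37) is shown because it held the ETS letters, in capitals, in a setting free of repeats. It does not stand for the other strongest promoter members. The longest purine-only or pyrimidine-only runs in the 201 bases around the summit were 33, 29 and 36 bases at ABCB9, SLC27A6 and ZNF366. They were 17 at VPS4B and 7 at LMX1B.
LMX1B: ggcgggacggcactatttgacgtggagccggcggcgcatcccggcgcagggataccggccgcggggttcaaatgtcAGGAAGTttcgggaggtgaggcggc

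Members had 1723 nearest genes, of which 1399 had a single member and 88 had 3 or more, where all reproducible sites had 5935 nearest genes. Of the 1723, 762 had no MOLM1-shared site. A gene with few reproducible sites can lack a shared one by count alone, so the 762 is a description and was not tested. LZTS1, a leucine zipper tumor suppressor, was the nearest gene of the most members, 9 of its 13 reproducible sites, all upstream by 69488 to 735481 bp, with EVI1 in the unmodified list at 8 and CTBP2 kept in both dox libraries at 3. DUSP4, a phosphatase of MAP kinases, had 8 of 14, and 4 of these within 2 kb of its TSS met the same broad peak of untreated replicate 1 (fold 12.2), so they are not separate there. MAP3K7, the TGF-beta-activated kinase, had 7 of 8, upstream by 23798 to 568162 bp, with 6 kept in both dox libraries and 6 with unmodified EVI1. SLC24A3, a sodium, potassium and calcium exchanger, had 7 of 8, with gaps to MOLM1 of 136167 to 365793 bp and 6 kept in both dox libraries. Its members at −781, 54 and 901 bp from the TSS met the same peak of untreated replicate 1 (fold 16.3). Those at 54 and 901 bp also met the same peak of dox replicate 1 (6.95), so they are not separate there. TNS1, a focal adhesion protein, had 6 of 8, all intronic. CYRIA, with 6 of 11 sites, and OAS1, with 6 of 8, had as many members as TNS1. At its strongest SLC24A3 member (intron) the CTBP2 fold was 9.96 unmodified, 26.7 and 26.0 untreated and 7.77 and 9.33 with dox.

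Ordered along chromosomes 1 to 22 and X, 1204 of the 2195 members there had no member as neighbour among the reproducible sites. The longest runs of members unbroken by a MOLM1-shared site had 11, 9, 9, 7 and 6 sites. The run of 11 spanned 7028 kb on chromosome 18 and included ZNF521, a zinc-finger cofactor of blood progenitors, and SS18, with 41 MOLM1 peaks and 41 and 75 untreated CTBP2 peaks in the same span. A run of 9 on chromosome 2 (chr2:218750844-218990782) covered TNS1, RUFY4 and CXCR2, the neutrophil chemokine receptor. In this span the untreated inducible lists had 39 and 29 CTBP2 peaks, the dox lists 16 and 12, and the MOLM1 list 3, and 8 of the 9 members kept a peak in both dox libraries. Another run of 9 reached from SLC24A3 to RALGAPA2 on chromosome 20, with 32 MOLM1 peaks in its 1470 kb. The run of 7 upstream of LZTS1 spanned 137 kb with 3 MOLM1 peaks, and the first of 3 runs of 6, upstream of MAP3K7 (chr6:91571840-91865100), had no MOLM1 peak, 8 and 12 untreated CTBP2 peaks, 7 and 7 with dox and 7 unmodified EVI1 peaks.

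Chromosomes differed in the share of reproducible sites that were members. It was highest on X (53 of 174, 30.5%, 24.1 to 37.7). Among chromosomes 1 to 22 it was highest on 18 (60 of 204, 29.4%, 23.6 to 36.0), 7 (131 of 493, 26.6%, 22.9 to 30.6) and 14 (93 of 352, 26.4%, 22.1 to 31.3), and lowest on 13 (29 of 214, 13.6%, 9.60 to 18.8) and 15 (63 of 428, 14.7%, 11.7 to 18.4). The X chromosome held 1.26% of MOLM1 peaks and 1.94%, 2.00% and 1.69% of the peaks of untreated replicates 1 and 2 and of the unmodified list. Chromosome 7 held 3.85% of MOLM1 peaks and 4.90% of the peaks of untreated replicate 1, and chromosome 13 held 2.76% and 1.57%. Chromosome 18 held 1.595% of MOLM1 peaks and 1.496%, 1.87% and 2.09% of the peaks of untreated replicates 1 and 2 and of the unmodified list, so the direction depended on the list. Copy number of these chromosomes in the lines was not tested.

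Gene groups were read from 12 lists by nearest TSS, with lists chosen with results of these data known. The share of a list's reproducible sites that were members ran from 11.5% to 23.3%, and for all 12 the 95% interval held the 20.1% of all sites, so by this count no list was apart from the background. Haematopoietic transcription factors had 50 members among 217 sites (23.04%, 17.9 to 29.1) at 26 of the 54 genes with a site, 25 kept in both dox libraries and 14 in neither, where 52.9% and 22.5% of all members were. These were led by KLF6, through a site −274672 bp from its TSS. Next were TAL1, a master regulator of stem cells and erythroid cells, and ERG, an ETS factor of stem cells. The strongest of 4 TAL1 members, at −11870 bp from the TSS, had CTBP2 folds of 14.9 unmodified, 19.3 and 17.9 untreated and 4.74 and 9.67 with dox. It had EVI1 in all 5 lists, and 3 of the 4 were kept in both dox libraries. The strongest of 5 ERG members, intronic, had 11.5 unmodified, 6.03 and 7.64 untreated and 6.27 and 8.21 with dox, so untreated and dox values overlapped there. Of the 5, 3 were kept in both dox libraries and 1 in neither.

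Stem and progenitor surface genes had 8 members of 59 sites (13.6%, 7.03 to 24.5), led by CD44, the hyaluronan receptor (fold 12.9), CD34, the progenitor marker (6.86), and CD164 (4.93). The strongest member of each of these genes was kept in both dox libraries, with EVI1 in all 5 lists. Of the 3 CD44 members, 2 were kept in both. At the CD34 member, at −7451 bp, folds were 6.37 and 5.78 untreated and 5.86 and 9.58 with dox, so this site was not lower with dox. Growth factor and cytokine receptors had 16 of 71 (22.5%, 14.4 to 33.5). They were led by a site −256641 bp from the TSS of CSF3R, the G-CSF receptor (6.86, kept in neither dox library). A second CSF3R member with fold 6.28 was kept in both. Next were sites near S1PR1 (6.43) and CSF1R, the macrophage growth factor receptor. The CSF1R member, at the TSS, had 6.26 unmodified, 16.3 and 12.7 untreated and 4.05 and 5.43 with dox. Neutrophil and monocyte genes had 8 of 61 (13.1%, 6.80 to 23.8), led by the NADPH oxidase subunit NCF4 (12.01) and the gelatinase MMP9 (6.504). EVI1 was in the unmodified list at 1 of these 8 members, the lowest share of the 12 gene lists, against 46.6% of all members. The highest was that of lymphoid genes, 6 of 10. With so few members per list these shares were not tested.

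Erythroid and megakaryocyte genes had 7 members of 30 sites (23.3%, 11.8 to 40.9), led by GYPB, a red cell glycophorin, RAB27B, a GTPase of granule release, and PDE3A. Lymphoid genes had 10 of 61 (16.4%, 9.16 to 27.6), led by IGLL1, BACH2 and SLAMF1. Adhesion genes had 10 of 58 (17.2%, 9.64 to 28.9), led by CD44, ITGB1 and ITGA9, and small GTPase regulators had 22 of 146 (15.1%, 10.2 to 21.8), led by RASGRP3, DAB2IP and PREX1. The intronic PREX1 member, at a Rac exchange factor, had CTBP2 folds of 40.2 and 21.2 untreated and 4.01 and 4.73 with dox, while its EVI1 folds were 31.9 and 31.1 untreated and 20.4 and 17.3 with dox.

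Kinase and phosphatase genes had 36 members of 170 sites (21.2%, 15.7 to 27.9), led by SGK1 (12.1), PLCG2 (11.6) and DUSP5 (7.91). The SGK1 member, at −193057 bp from the TSS of this serum- and glucocorticoid-induced kinase, had CTBP2 folds of 8.22 and 15.6 untreated and 8.33 and 15.8 with dox and EVI1 folds of 20.9 and 10.8 untreated and 40.7 and 52.9 with dox. The PLCG2 member had 46.3 and 26.3 untreated and 7.22 and 6.496 with dox, so these 2 sites went different ways with dox. TGF-beta and SMAD genes had 12 of 83 (14.5%, 8.47 to 23.6), led by BAMBI, a decoy receptor, SMURF2, a ubiquitin ligase, and ID3. CTBP corepressor complex genes had 9 of 78 (11.5%, 6.19 to 20.5), led by ZEB2, a CTBP-binding zinc-finger factor, and BCOR, and cell cycle and survival genes had 7 of 56 (12.5%, 6.19 to 23.6), led by CCND3, BCL2 and CDK6. The ZEB2 member had CTBP2 folds of 8.78 unmodified, 25.9 and 22.8 untreated and 11.6 and 9.44 with dox, and EVI1 in all 5 lists.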

How the data were processed

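ChIP-seq peak lists of 13 samples were analysed; MOLM1 EVI1, dox-treated MOLM1 and retroviral 4xPLDLS libraries were not analysed here. Per the labels and the submitters' processing notes, the authors aligned reads to hg19 with Bowtie 1.1.1 and called peaks for each library against an input with MACS2 2.1.2, and the deposited lists hold a fold enrichment and −log10 p and q values for each peak, with no read counts. In the inducible cells each treatment had 1 input. Labels and the study's own sample list differ on the crosslink of the MOLM1 and 4xPLASS libraries; labels were followed.

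Overlaps (at least 1 bp), nearest protein-coding TSS and gene context came from GENCODE lifted to GRCh37, and sequence from the GRCh37 genome, with Python 3.11.15, pandas 2.3.3, scipy 1.17.1 and pysam 0.24.0. The overlap and interval code was tested on simulated data. Groups followed the labels, and lists without counts allowed no test per site, so shares were compared per library with exact permutation tests. Members, gene lists and tests were chosen with earlier results of these data known.

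Named sites were the 10 strongest members by fold in the unmodified list, the 5 strongest at promoters, without CTBP2 with dox and without EVI1, the 3 strongest genes of each list, the 5 genes with most members, the 5 longest runs, and the 3 nearest either side of the overlap limit. Genes tied in count with the fifth, and single examples within these sets, were named after their values were seen. Some sites and sequences that this rule names are not reported here. Alternatives varied the overlap, the MOLM1 distance, peak cutoffs, the lists required and the libraries used.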

Additional observations from a re-analysis of the deposited data

How the results depend on the processing

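The kept share with dox was lower at members than at the other reproducible sites under all 18 alternatives, from −25.7 to −11.1 points. The EVI1 share at members was lower with dox under all 18 run for it, from −6.73 to −2.59 points. In the 1 kb and 10 kb alternatives the other sites included members nearer to a MOLM1 peak, beside MOLM1-shared sites. Members beyond 10 kb kept a dox peak in 71.4% and 70.3%, against 85.4% and 84.9% of MOLM1-shared sites alone. Their unmodified EVI1 share was 52.5%, against 74.2%. The number of members fell to 1317 with −log10 q of at least 5, to 1033 with fold enrichment of at least 5 and to 640 when 4xPLASS replicate 1 was also required, and rose to 5511 when the MOLM1 list was reduced to its strongest peaks, as many as in the unmodified list. The EVI1 difference of −27.5 points became −21.8 with summits within 200 bp, −20.4 with no MOLM1 peak within 1 kb, −17.4 within 10 kb, −24.3 with the q cutoff, −24.0 with the fold cutoff, −30.6 with the reduced MOLM1 list, −32.2 without requiring 4xPLASS replicate 2 and −3.65 when EVI1 had to be called in both untreated inducible libraries. The promoter difference of 0.419 points had no stable sign: it was 4.47 with 50% overlap, 3.01 with the fold cutoff, 13.7 with the reduced MOLM1 list and 2.66 without repeated windows, but −10.1 with no MOLM1 peak within 1 kb, −7.43 within 10 kb and −2.49 with 4xPLASS replicate 1 required. The cause was not tested.

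Leaving out an untreated CTBP2 replicate gave 2290 to 2658 members, a kept difference of −21.4 to −20.9 points and an EVI1 change of −4.48 to −3.03 points, with an exact permutation p of 1 for the latter without untreated replicate 1. Leaving out a dox replicate gave kept differences of −21.4 to −18.5 and EVI1 changes of −5.60 to −3.33 points, and leaving out an EVI1 untreated replicate −4.95 to −3.99. Alternatives with a 10 kb distance, with groups by untreated fold, without repeated windows, without an EVI1 untreated replicate or with crossed numbers were added after seeing the data.

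Replicates share only a number. With the replicate block, the EVI1 change at members was −4.47 points ± 0.930 (SD of 2 pairs, exact sign permutation p = 0.5) and the kept difference −20.9 points ± 1.43. Replicate differences in log2 fold at members correlated by 0.25 between untreated and dox CTBP2 libraries and by −0.32 between EVI1 libraries. Crossing the EVI1 numbers left the change at −4.47 points with an SD of 2.28.

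With 1 unmodified and 1 MOLM1 CTBP2 library, absence in MOLM1 rests on 1 list and its calling threshold. With 2 dox libraries, no comparison can bring a permutation p under 0.33 or a sign permutation p under 0.5. No read counts were used, so a missing peak is a missing call and not a measured absence of CTBP2 or EVI1.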
